A study of Daphnia magna with 12 samples.

Results

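Daphnia magna, a planktonic water flea, can breed clonally, so animals of 1 clone share a genotype. Of 21456 gene models listed for 12 RNA-sequencing libraries of such females, 10734 averaged at least 0.5 counts per 1000000 (CPM, the raw count divided by the library total), and 33 of these were lower in all 8 libraries of old females than in each of the 4 libraries of young females. The old females were aged 130 to 170 days, with 4 libraries from females that had stopped reproducing and 4 from females that were reproducing, and the young females were reproducing and aged 20 days. All were of the clone GB-EL75-69, kept singly, untreated apart from age and labelled as whole body, somatic, so the groups stand for 1 genotype, and no young non-reproducing group was analysed here. They were housed at 20 C in artificial medium and fed the green alga Scenedesmus acutus. Nothing in the labels says whether each library came from a separate animal, so p-values measure the spread between libraries, which may in part be technical. The 33 genes were chosen by the contrast of young with old libraries, so their levels in that contrast are given as a description. Calls made in that contrast are listed once below, are no test of the 33 genes, and nothing is read from them. The contrast between the old groups was not part of the rule and was tested. The rule holds both old groups below the young libraries, so a gene kept at the young level in either could not be a member. Differences of that kind between the old groups are thus left out by the choice.

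In Daphnia, yolk protein precursors and storage lipids are made outside the ovary, mainly in the fat cells, and taken up by growing oocytes, so breeding draws on somatic tissue. Fecundity declines late in life. The series, by its title, asks how expression in old females that reproduce compares with that in young ones and in old females that do not. The gene IDs come from an assembly-based gene prediction and are not paired with names in the files. 0 of them matched the RefSeq gene table for this species, so no member can be given a function and the labelled tissue could not be checked against marker genes. The members are described by their contig, the length of the gene model and their values. In whole animals, fewer cells of a type and less RNA per cell cannot be told apart.

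Library totals ranged from 16015869 to 25659597 counts, and young and old libraries overlapped in depth. Genes lower in every old library made up 0.307% of the 10734 genes. In the opposite direction, 565 genes (5.26%) were higher in every old library. The counts lower and higher were 56 and 537 with TMM factors, 75 and 464 with upper-quartile factors and 77 and 499 with DESeq2 size factors. In raw CPM the median gene differed by 0.0289 (log2) between old non-reproducing and young females and by 0.0989 between old reproducing and young females, both upward in old.

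Together the 33 genes held 1.19, 1.18, 1.30 and 1.12% of the counts in old non-reproducing replicates 1 to 4. They held 1.60, 1.51, 1.29 and 1.33% in the old reproducing libraries. In the young libraries they held 2.53, 1.95, 2.01 and 2.25%. The 4 young shares were all above the 8 old ones, which the rule makes certain. The old non-reproducing and old reproducing shares overlapped at replicate 3 of each group. The median member stood at 48.6% of its young mean in old non-reproducing females and at 53.3% in old reproducing females, against medians of 103% and 107% over all genes at 0.5 CPM or more. Young means were at least 2 times the old non-reproducing mean in 18 members and at least 2 times the old reproducing mean in 14.

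**Figure D1:**
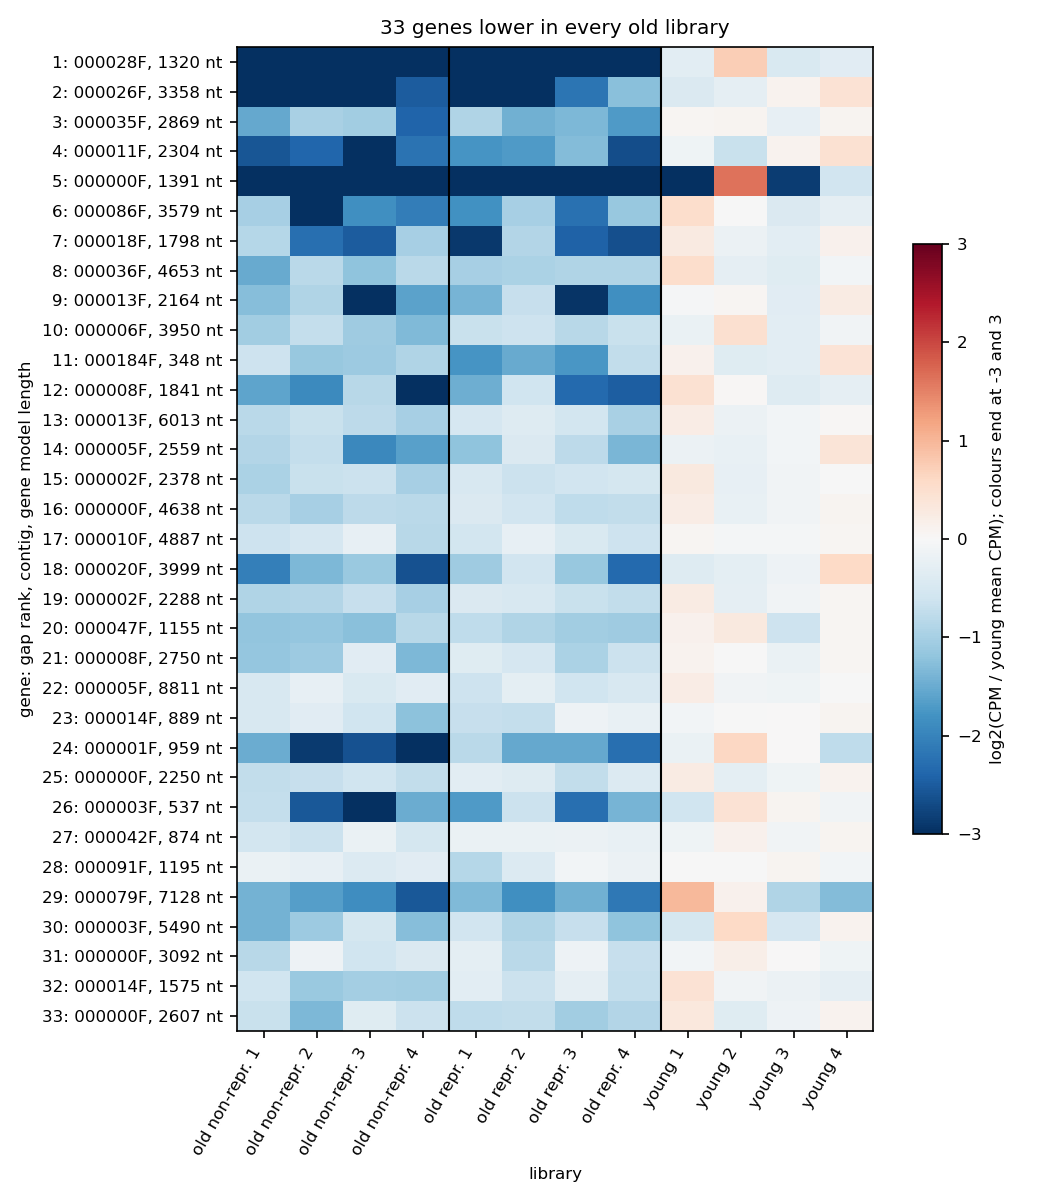
Level of each of the 33 genes (rows, ordered by the ratio of the lowest young to the highest old library) in each library (columns), as log2 of CPM over the young mean CPM of the gene. Blue is below and red above the young mean, colours end at -3 and 3, and the rows ranked 1 and 5 are the darkest across all 8 old libraries.

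Ranked by the ratio of the lowest young to the highest old library, termed the gap here, 1 gene stood far from the rest. The gene maker-000028F-snap-gene-5.63, a model of 1320 nucleotides on contig 000028F, had 0.857, 0.456, 0.464 and 1.45 CPM in old non-reproducing replicates 1 to 4. It had 0.487, 0.831, 0.803 and 0.437 CPM in the old reproducing libraries and 29.4, 61.8, 26.9 and 29.2 CPM in the young ones. All old libraries were near the bottom of the measured range, and the lowest young library was 18.6 times the highest old one. No other member reached a gap of 2. Per length, its level was 0.611 ± 0.353 RPKM in old non-reproducing, 0.485 ± 0.156 RPKM in old reproducing and 27.9 ± 12.6 RPKM in young females (reads per kilobase of model per 1000000 reads, SD, n = 4 each). The fitted log2 change against young was -5.52 (SE 0.45) in old non-reproducing and -5.93 (SE 0.46) in old reproducing females. These changes, and all others against young, describe the contrast that chose the gene.

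The gaps after it were between 1.45 and 1.77 in the next 6 genes by rank. The gene ranked 2, on contig 000026F (3358 nucleotides), was the least abundant of the 33. It had 0.171, 0.171, 0.139 and 0.394 CPM in old non-reproducing, 0.162, 0.277, 0.491 and 0.937 CPM in old reproducing and 1.65, 1.85, 2.42 and 3.04 CPM in young libraries. Its old reproducing libraries spread upward toward the young range, with replicate 4 the highest, but with as few as 3 reads in a library its levels are coarse. The gene ranked 3, on contig 000035F (2869 nucleotides), was among the more abundant members. It had 132, 194, 184 and 72.4 CPM in old non-reproducing, 204, 140.3, 150.3 and 118 CPM in old reproducing and 396, 405, 321 and 404 CPM in young libraries. The old groups overlapped in part, with old non-reproducing replicate 4 the lowest and old reproducing replicate 1 the highest of the old libraries, and young replicate 3 was below the other young libraries. The gene ranked 4, on contig 000011F (2304 nucleotides), had 14.4, 16.5, 9.38 and 18.5 CPM in old non-reproducing, 25.2, 26.2, 34.9 and 13.4 CPM in old reproducing and 77.7, 54.1, 92.4 and 118 CPM in young libraries. Here 3 of the 4 old reproducing libraries lay above every old non-reproducing one, and replicate 4 lay among them.

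The gene ranked 5, on contig 000000F (1391 nucleotides), varied widely among young females. It had 0.257, 0.0570, 1.02 and 0.438 CPM in old non-reproducing, 0.920, 0.396, 1.12 and 0.749 CPM in old reproducing and 1.71, 42.6, 1.92 and 9.24 CPM in young libraries. The highest young library was 24.8 times the lowest, against a median of 1.60 over the 33 genes, and its young mean of 13.9 ± 19.5 CPM (SD, n = 4) rests mainly on replicate 2. The gene ranked 6, on contig 000086F (3579 nucleotides), had 3.16 ± 1.86 CPM in old non-reproducing, 4.07 ± 1.55 CPM in old reproducing and 11.2 ± 3.51 CPM in young females (SD, n = 4 each). The gene ranked 7, on contig 000018F (1798 nucleotides), had 20.3, 7.64, 6.55 and 18.3 CPM in old non-reproducing, 4.93, 20.03, 6.82 and 5.93 CPM in old reproducing and 44.3, 32.7, 29.4 and 40.3 CPM in young libraries. Its old libraries fell into a higher and a lower level that did not follow reproductive state: old non-reproducing replicates 1 and 4 and old reproducing replicate 2 were near 20 CPM, and the other 5 were below 8 CPM.

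**Figure D2:**
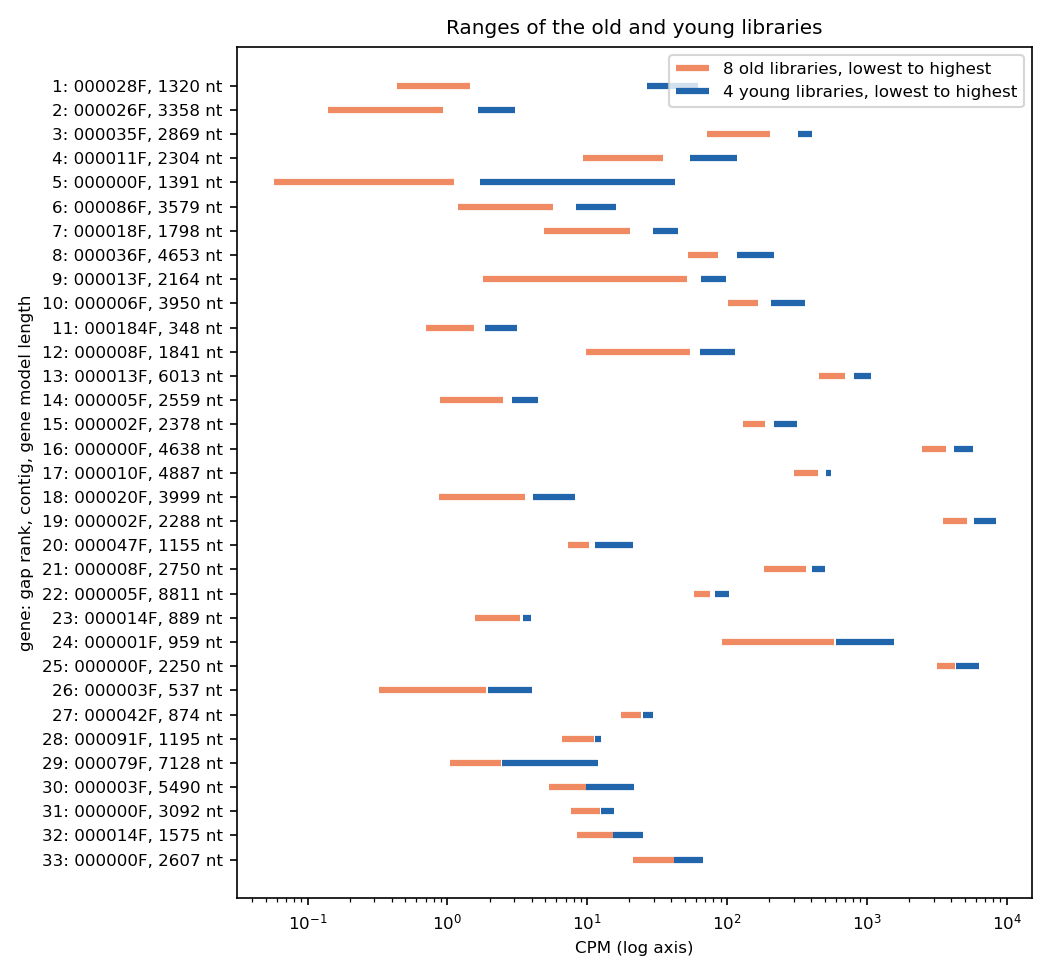
Range from the lowest to the highest library of each gene in CPM on a log axis, orange for the 8 old and blue for the 4 young libraries, ordered by gap. The gene ranked 1 has its ranges farthest apart, while in the lowest rows the ranges almost touch.

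Abundance in the set was uneven. The 3 most abundant members, each above 1000 CPM on average, carried 82.6% of the set's counts in old non-reproducing, 82.4% in old reproducing and 78.7% in young females. The most abundant, maker-000002F-snap-gene-11.26, a model of 2288 nucleotides on contig 000002F, ranked 19 among all gene models by mean CPM. It had 3738, 3831, 4346 and 3492 CPM in old non-reproducing, 5168, 5047, 4408 and 4238 CPM in old reproducing and 8381, 5844, 6536 and 7322 CPM in young libraries. Old non-reproducing libraries were mostly below old reproducing ones, with an overlap between old non-reproducing replicate 3 and old reproducing replicate 4. Per length it was also the highest of the 33, with 1684 ± 157 RPKM in old non-reproducing, 2061 ± 201 RPKM in old reproducing and 3069 ± 476 RPKM in young females (SD, n = 4 each).

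The next 2 by abundance both lay on contig 000000F. The model of 2250 nucleotides had 3174, 3305, 3498 and 3172 CPM in old non-reproducing, 4245, 4049.7, 3181 and 4015 CPM in old reproducing and 6308, 4364, 4828 and 5736 CPM in young libraries. Its old reproducing replicate 3 lay within the old non-reproducing range, and the other old reproducing libraries lay above it. The model of 4638 nucleotides had 2814, 2483, 2845 and 2832 CPM in old non-reproducing, 3673, 3287, 2918 and 2969 CPM in old reproducing and 5751, 4224, 4545 and 5173 CPM in young libraries. In the model of 4638 nucleotides all old non-reproducing libraries were below all old reproducing ones, though the nearest 2 libraries differed by only 2845 against 2918 CPM. All 3 genes were highest in young replicate 1, followed by replicates 4, 3 and 2. Their deviations from the group means had pairwise Pearson r values of 0.809 to 0.824 over the 12 libraries, which share library depth and scaling. Over all 528 pairs of members the median r was 0.0347, and over all pairs of genes with reads in every library it was 0.123.

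**Figure D3:**
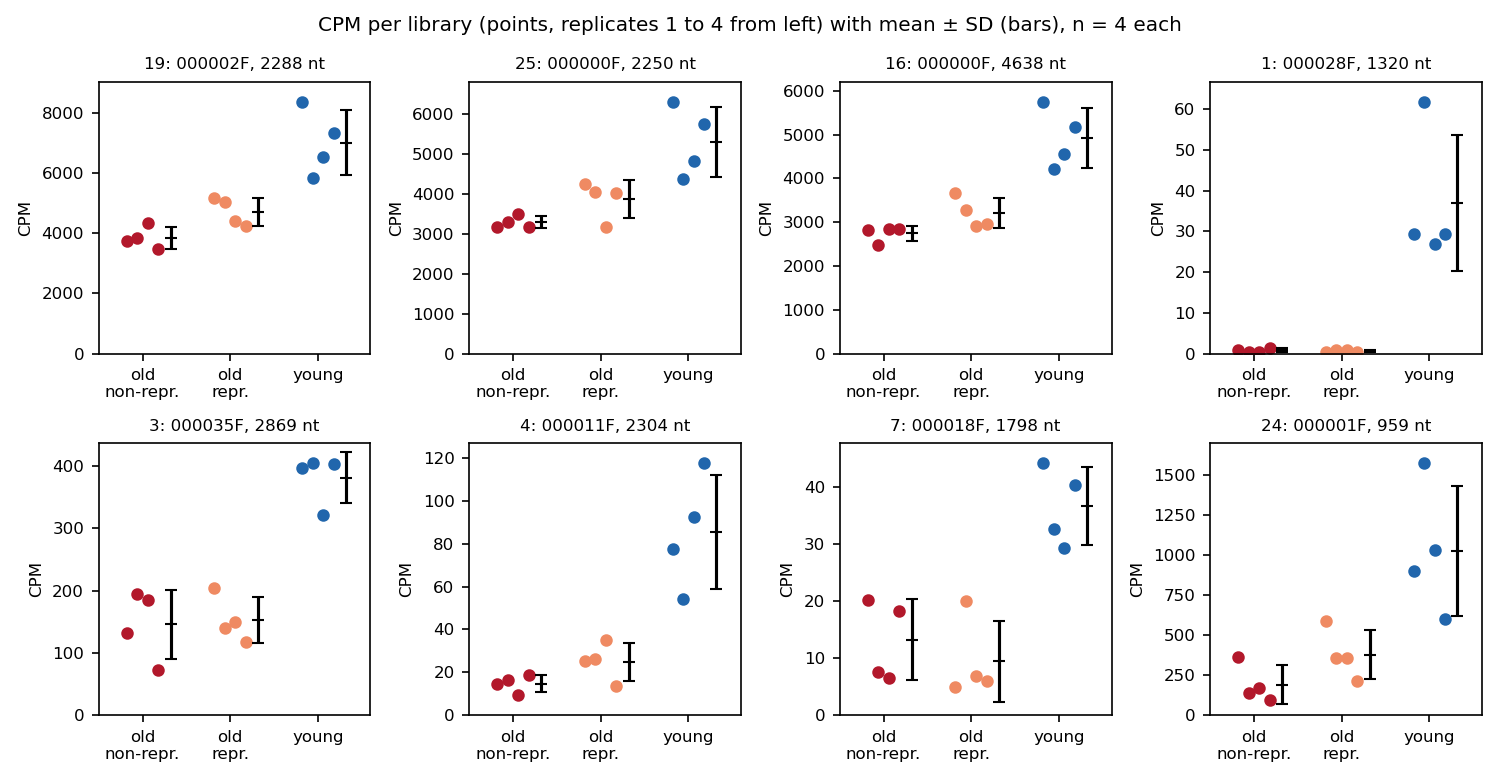
CPM of 8 members in each library: the 3 most abundant genes, the genes ranked 1, 3, 4 and 7 by gap, and the fifth most abundant gene, on contig 000001F. Points are replicates 1 to 4 from left to right within each group and bars the mean ± SD (n = 4). In the 3 most abundant genes old non-reproducing means lie lowest, old reproducing means next and young means highest, while the gene ranked 1 is near 0 in both old groups.

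Another 8 members averaged between 100 and 1000 CPM, and in all of them the raw old reproducing mean lay above the old non-reproducing mean. This held in 7 of the 12 members between 10 and 100 CPM, in 9 of the 10 below 10 CPM and in all 3 above 1000 CPM. It also held in 63.6% of all genes at 0.5 CPM or more, and in 80.6% of those whose young mean lay above their old mean. Fitted log2 changes between the old groups went the other way on contigs 000035F and 000010F, at 0.031 and 0.041. Of the 8, the gene on contig 000001F (959 nucleotides) was lowered most. It had 365, 139, 168 and 91.5 CPM in old non-reproducing, 586, 354, 355 and 214 CPM in old reproducing and 899, 1577, 1032 and 603 CPM in young libraries. The groups stepped down in order, but old non-reproducing replicate 1 was above 3 of the old reproducing libraries, and the highest old and lowest young library were close, at 586 and 603 CPM. The model of 6013 nucleotides on contig 000013F had 525 ± 50.1 CPM in old non-reproducing, 613 ± 98.9 CPM in old reproducing and 918 ± 109 CPM in young females (SD, n = 4 each). The model of 4887 nucleotides on contig 000010F had the smallest change of the 8, with 369 ± 61.0 CPM in old non-reproducing, 388 ± 45.0 CPM in old reproducing and 535 ± 25.5 CPM in young females (SD, n = 4 each). Its young libraries were tightly grouped, at 512 to 557 CPM. Over the 8 genes, old non-reproducing means were 18.6 to 69.0% and old reproducing means 36.7 to 72.5% of the young mean.

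Among the same 8, the gene ranked 8, on contig 000036F (4653 nucleotides), had 52.5, 85.2, 64.8 and 86.4 CPM in old non-reproducing, 75.7, 77.9, 80.9 and 80.5 CPM in old reproducing and 216, 125, 117 and 143 CPM in young libraries. Old reproducing libraries were tightly grouped within the wider old non-reproducing range. The gene ranked 10, on contig 000006F (3950 nucleotides), had 125, 158, 122 and 102 CPM in old non-reproducing, 161, 166, 145 and 163 CPM in old reproducing and 223, 361, 206 and 237 CPM in young libraries. Only old non-reproducing replicate 2 reached into its old reproducing range, and young replicate 2 was the highest.

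The other members were 12 genes between 10 and 100 CPM, among them those ranked 1, 4 and 7, and 10 genes below 10 CPM, among them those ranked 2, 5 and 6. In the 12, the old non-reproducing mean was 2.19 to 81.4% of the young mean, with a median of 49.6%, and the old reproducing mean 1.74 to 87.6%, with a median of 53.8%. In the 10, the medians were 31.2% in old non-reproducing and 38.6% in old reproducing females. The gene ranked 9, on contig 000013F (2164 nucleotides), had the widest spread among old libraries. It had 33.9, 44.2, 1.81 and 27.4 CPM in old non-reproducing, 31.6, 51.3, 10.7 and 23.04 CPM in old reproducing and 80.8, 86.5, 65.4 and 98.6 CPM in young libraries. Its highest old library was 28.3 times its lowest, the low ones being replicate 3 of each old group, and the young libraries were within a factor of 1.51.

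The gene ranked 12, on contig 000008F (1841 nucleotides), had 27.9, 21.95, 46.4 and 9.86 CPM in old non-reproducing, 30.2, 54.6, 16.6 and 14.9 CPM in old reproducing and 114, 84.8, 63.6 and 69.1 CPM in young libraries. Old libraries overlapped widely, with 1 high library in each old group. The model of 2607 nucleotides on contig 000000F had 34.3, 21.15, 41.98 and 34.7 CPM in old non-reproducing, 31.6, 32.5, 26.3 and 29.3 CPM in old reproducing and 67.1, 42.03, 48.3 and 58.5 CPM in young libraries. Its old non-reproducing replicate 3 all but touched young replicate 2, the smallest gap of the 33.

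At the other end, the model of 1195 nucleotides on contig 000091F had the least lowered old non-reproducing mean. It had 9.72 ± 0.619 CPM in old non-reproducing, 9.31 ± 2.03 CPM in old reproducing and 11.9 ± 0.523 CPM in young females (SD, n = 4 each). The model of 874 nucleotides on contig 000042F had 18.6, 17.5, 23.9 and 19.1 CPM in old non-reproducing, 23.9, 23.9, 24.3 and 23.5 CPM in old reproducing and 24.9, 29.6, 25.5 and 29.03 CPM in young libraries. The old reproducing libraries of this gene were nearly identical and lay just under the lowest young one.

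Many members met the rule narrowly. The gap was under 1.1 in 12 members, and its median was 1.14. In 15 members it was smaller than 1.96 times the counting error of the 2 libraries that set it, so the order of those 2 libraries is within counting error, and 9 of these averaged under 10 CPM. Just inside, the smallest gaps were 41.98 CPM in the highest old against 42.03 CPM in the lowest young library, and 15.26 against 15.28 CPM. Just outside, the nearest genes had 164.2 CPM in the highest old against 163.5 CPM in the lowest young library, and 8.386 against 8.332 CPM. In all, 12 genes outside the set had ratios from 0.95 to 1, so the set shades into its surroundings. The limit of 0.5 CPM left out 17 genes with the same separation, the highest at 0.453 CPM, and the least abundant member averaged 0.976 CPM.

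The size of the list depended on single libraries. With 1 library left out of the rule, the genes that also hold in that library are by construction the 33 members, so the count shows only how many further genes that library kept out. Without young replicate 3 the rule gave 123 genes, and without young replicate 1 it gave 103. Without young replicates 2 and 4 it gave 48 and 46 genes. Leaving out old reproducing replicates 1 to 4 gave 42, 42, 57 and 36 genes, and leaving out an old non-reproducing library gave 33 to 38. Young replicates 1 and 3 thus kept out the most genes, and old non-reproducing replicate 4 kept out 0.

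**Figure D4:**
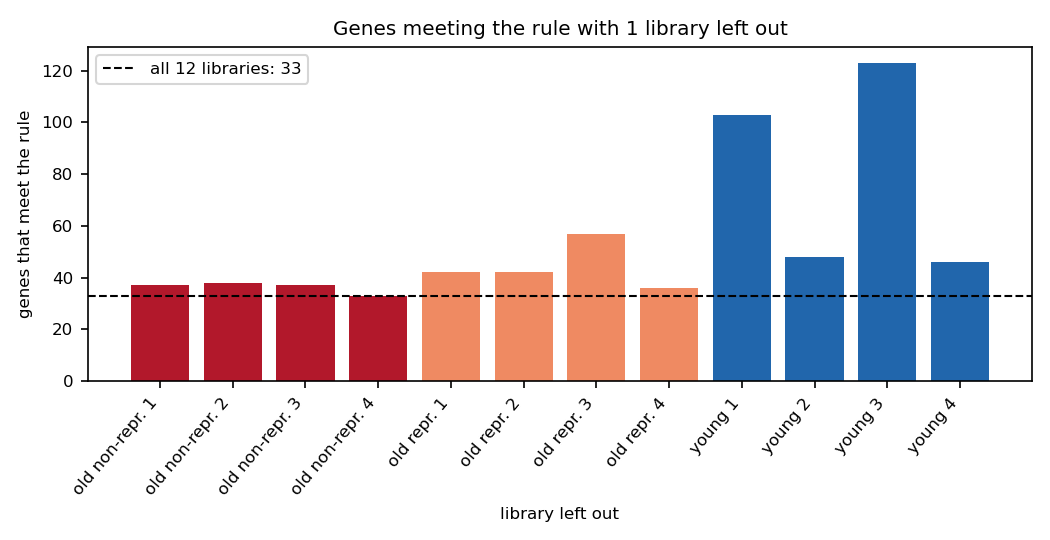
Number of genes that met the rule when 1 library was left out (bars, coloured by group), with the 33 genes of all 12 libraries as a dashed line. Leaving out young replicate 1 or 3 gave 103 and 123 genes, while leaving out an old non-reproducing library gave 33 to 38.

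The old groups differ in reproduction and share an age range, with the age of each library not given, and their comparison was tested over all genes. All 33 members passed the filter on low counts. In old non-reproducing against old reproducing females, edgeR's quasi-likelihood test called 0 of the 33 at an adjusted p under 0.05, beside 0% of the 10987 genes tested in either direction. The smallest adjusted p among the members was 0.563 by edgeR. At an unadjusted p under 0.05 there was 1 lower member, beside 2.95% of all genes, and there were 0 higher members, beside 5.12%. DESeq2 also called 0 of the 33, beside 0.349% of genes lower and 2.81% higher in old non-reproducing females. Leaving out old non-reproducing replicate 1, which raised the calls over all genes to 0.48% lower and 2.43% higher, again gave 0 members. Genes kept at the young level in either old group could not be members, so these counts do not cover such genes.

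The member with the smallest p was the gene ranked 4, on contig 000011F, at 14.7 ± 3.91 CPM in old non-reproducing and 24.95 ± 8.83 CPM in old reproducing females (SD, n = 4 each). The fit put it at -0.69 on the log2 scale (SE 0.29), with an adjusted p of 0.563 by edgeR. The gene on contig 000001F described above followed at -0.92 (SE 0.46), with an adjusted p of 0.671 by edgeR, and ranged from -1.36 without old non-reproducing replicate 1 to -0.58 without old reproducing replicate 1. The model of 1575 nucleotides on contig 000014F had 12.3, 8.49, 9.15 and 8.98 CPM in old non-reproducing and 14.9, 11.9, 15.3 and 11.2 CPM in old reproducing libraries. Only old non-reproducing replicate 1 reached into the old reproducing range of this gene, and its adjusted p was 0.737 by edgeR. In the direction of higher values in old non-reproducing females, the gene with the smallest p at 10 CPM or more was the model of 8811 nucleotides on contig 000005F. It had 64.2, 75.8, 65.0 and 70.8 CPM in old non-reproducing, 57.6, 73.2, 58.6 and 64.1 CPM in old reproducing and 104, 83.1, 81.8 and 88.3 CPM in young libraries, and the fitted difference between the old groups was 0.21 (SE 0.15), with an adjusted p of 0.786 by edgeR, or 0.32 without old reproducing replicate 2. The gene ranked 7, on contig 000018F, came next at 0.53 (SE 0.49), with an adjusted p of 0.849 by edgeR, and ranged from 0.29 without old non-reproducing replicate 1 to 1.27 without old reproducing replicate 2. For maker-000028F-snap-gene-5.63 the fit gave 0.41 (SE 0.42), with an adjusted p of 0.866 by edgeR, and -0.03 when old non-reproducing replicate 4 was left out. For maker-000002F-snap-gene-11.26 it gave -0.19 (SE 0.24), with an adjusted p of 0.899 by edgeR, and ranged from -0.35 without old non-reproducing replicate 3 to -0.11 without old reproducing replicate 1. None of these differences passed the test.

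Across the 33 genes the median fitted log2 change between old non-reproducing and old reproducing females was -0.13, beside -0.0029 over all genes tested, with 24 members below 0 and 9 above. In raw CPM the old reproducing mean was above the old non-reproducing mean in 27 of 33 (81.8%), beside 63.6% of all genes at 0.5 CPM or more. Among the 4510 genes whose young mean lay above their old mean, the share was 80.6%, close to that of the members, and among the 565 genes higher in every old library it was 36.3%. In raw CPM the median of all genes was itself shifted by -0.0971 (log2) between the old groups. With TMM scaling, 24 of 33 lay in this order. All 4 old non-reproducing libraries were below all 4 old reproducing ones in 1 member, the gene of 4638 nucleotides on contig 000000F, beside 3.1% of all genes. The reverse was seen in 0 members, beside 1.49%.

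**Figure D5:**
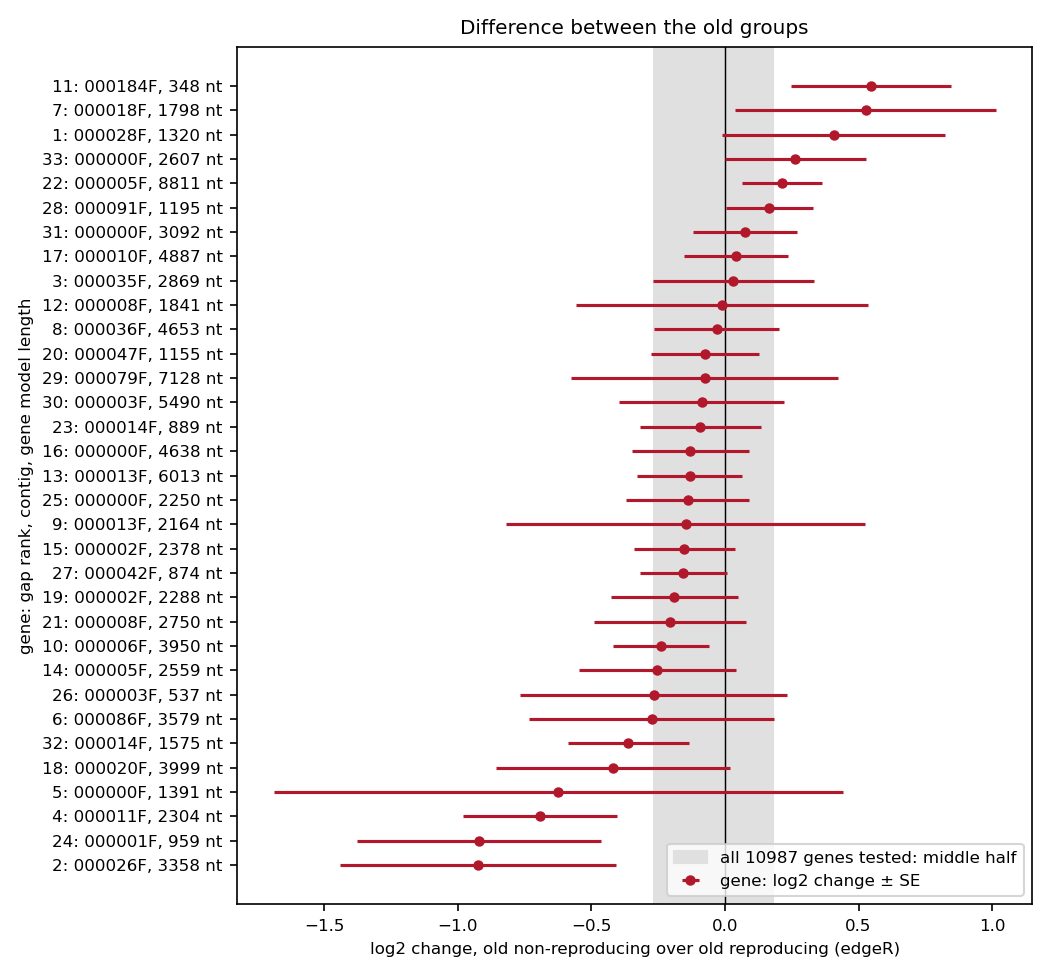
Fitted log2 change of each of the 33 genes between old non-reproducing and old reproducing females with its standard error (points and bars), and the interquartile range of all genes tested as a grey band. Most points lie left of 0, and the standard errors of most genes reach across 0.

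Among the old libraries, the highest value of a member was found in an old reproducing library in 23 genes (69.7%), beside 53.1% of all genes. Replicates 1 and 2 of that group held the highest value in 8 members each, beside 5.3% and 3.47% of all genes. Replicates 3 and 4 held it in 23.8% and 20.6% of all genes. The rule used the highest old value, so the library that holds it in a member depends on the choice. Nothing is read from how these shares compare with those of all genes. The lowest value was found in an old non-reproducing library in 28 members (84.8%), beside 69.8% of all genes, with replicate 4 lowest in 13 members (12.3% of all genes) and replicate 3 in 6 (36.3% of all genes). Spread within groups was ordinary. The median coefficient of variation of the members was 26.3% in old non-reproducing, 21.4% in old reproducing and 20.96% in young females, beside 28.1, 23.1 and 29.6% over all genes. The lower value in young females describes genes chosen for having 4 high young libraries.

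Calls against young cannot test the members, because the rule chose them by the same values and fixed their direction in advance. They are listed as a description only. Against young, edgeR called 19 of the 33 members lower in old non-reproducing females, beside 4.26% of all genes. It called 8 lower in old reproducing females, beside 0.0728% of all genes. Calls in the other direction were 0 members in either group, beside 7.73% of all genes in old non-reproducing and 2.8% in old reproducing females. DESeq2 called 32 members lower in old non-reproducing females, beside 12.1% of genes, and 23 lower in old reproducing females, beside 0.771%, with 0 members higher, beside 11.9% and 4.76%. The rule used this contrast, so nothing is read from these counts or from how they compare with the shares of all genes. Fitted log2 changes ranged from -5.52 to -0.34 in old non-reproducing females, with a median of -1.04, and from -5.93 to -0.31 in old reproducing females, with a median of -1.01. The same young libraries enter both.

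The gene models themselves were unremarkable. Their median length was 2378 nucleotides, beside 2236 over all genes at 0.5 CPM or more, and ranged from 348 to 8811. By the prefix of the ID, 16 came from maker with augustus (48.5%, beside 52.7%), 10 from maker with snap (30.3%, beside 24%), 4 from genemark, 3 from augustus_masked and 0 from snap_masked, which held 5.25% of all genes. Members were on average more abundant than other genes, with a median of 23.6 CPM beside 10.5 CPM, and 10.995 RPKM beside 5.77 RPKM. They lay on 23 of 178 contigs. Contig 000000F held 5 of them (15.2%, beside 7.99% of all genes).

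On 4 contigs a pair of members also shared the number before the point at the end of the ID, and the tables used here hold no coordinates, so their distance is unknown. On contig 000002F these were the most abundant member and the model of 2378 nucleotides, which had 135, 162, 167 and 130.1 CPM in old non-reproducing, 188, 166, 176 and 181 CPM in old reproducing and 319, 218, 243 and 260 CPM in young libraries. Their deviations from the group means had a Pearson r of 0.782 over 12 libraries, and 9 of the 15 other expressed models with that number were higher in young than in old females on average. On contig 000008F the models of 1841 and 2750 nucleotides had an r of 0.752, and 5 of 11 others were higher in young. For the 2 remaining pairs, on contigs 000000F and 000013F, r was -0.432 and 0.0995, so members that shared a number did not always vary together. Around maker-000028F-snap-gene-5.63, 2 of 19 other models with its number were higher in young females, beside 42.0% of all genes.

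The list depended on how libraries were scaled. Of the 33 genes, 25 met the rule under TMM, upper-quartile and DESeq2 scaling alike. The direction against young stayed the same in all 33 under each, in both old groups. The genes were chosen by that direction, so nothing is read from it. The 16 genes with the largest gaps were all kept under each of these scalings. The 8 that were not kept included the gene of 4887 nucleotides on contig 000010F and that of 959 nucleotides on contig 000001F.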

How the data were processed

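Kits named in the labels' protocols are Qiagen RNeasy for extraction and NEBNext Ultra II Directional for the libraries. STAR and SAMtools appear in the submitters' processing notes, without versions or roles. The counting program, its strand setting and the genome build are not given in the sources used here. Deposited per the file headers were unnormalized read counts for each gene model, used for every test, and RPKM values by the authors, which follow from those counts, the library totals and a length for each gene (to within 1.26e-06 percent). 1 gene had no RPKM value. Columns were tied to libraries by the library number in the labels.

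The members, the lists and the tests were chosen with earlier results of these data known. Members are the 33 genes with a mean of at least 0.5 raw CPM over 12 libraries and a lowest young value above the highest of 8 old values. R 4.3.3 and edgeR 4.0.16 were used for the fit (filterByExpr, TMM factors, robust quasi-likelihood, 1 mean per group), with Benjamini-Hochberg adjustment over 10987 genes. Standard errors are the absolute log2 change over the square root of F. DESeq2 1.42.0 and limma 3.58.1 served as alternatives, with other scalings, filters and thresholds and with each library left out. The scripts were tested on simulated data. Counting errors cover counting only, as reads without identifiers may share a molecule.

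Each of the 18 pairs of libraries within groups exceeded sampling noise (chi-square per degree of freedom at least 83.4). Genes described singly were, at 10 CPM or more, the 10 largest gaps and the 5 smallest p-values between the old groups in each direction, and the 5 most abundant. The genes ranked 2, 5 and 6 by gap, that of contig 000010F and those that share a number on a contig were added after their values were seen. IDs are printed for 2 genes, since the files pair no names with them.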

Additional observations from a re-analysis of the deposited data

Results flagged for a closer look

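In 108 groups of 4 values, the highest and lowest library were compared with the nearest of the others, by their gap over the whole range (Dixon's criterion). Among these, 5 stood apart, and chance flags about 1 group in 20, here 5.4. The gene maker-000028F-snap-gene-5.63 had 61.8 CPM in young replicate 2, against 26.9 to 29.4 CPM in the other young libraries. The gene ranked 2 by gap, on contig 000026F, had 0.394 CPM in old non-reproducing replicate 4, against 0.139 to 0.171 CPM. The gene ranked 3, on contig 000035F, had 321 CPM in young replicate 3, against 396 to 405 CPM. The gene ranked 7, on contig 000018F, had 20.0 CPM in old reproducing replicate 2, against 4.93 to 6.82 CPM. The model of 4638 nucleotides on contig 000000F had 2480 CPM in old non-reproducing replicate 2, against 2810 to 2840 CPM. No library stood apart in its total count or in the summed level of the 33 genes.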

How the results depend on the processing

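The number of genes that met the rule was 33 in raw CPM, 56 with TMM factors, 75 with upper-quartile factors and 77 with DESeq2 size factors. It was 50 with no minimum CPM and 5 when the lowest young library had to be at least 1.5 times the highest old one. Leaving out 1 library gave 33 to 123 genes in raw CPM (57 without old reproducing replicate 3, 103 and 123 without young replicates 1 and 3) and 57 to 228 with TMM factors. No member was called between the old groups in any of the 22 alternatives. These left out each library, changed the factors, the filter, the tool or the threshold, fitted the 8 old libraries alone or added a replicate block. Over all genes, DESeq2 called 317, the fit without old non-reproducing replicate 1 called 327 and the replicate block called 1. The other alternatives called 0 genes, so their 0 members are nothing particular to the set. The median log2 change between the old groups was -0.231 to -0.0429 over the fits that left out 1 library, the extremes being without old non-reproducing replicate 3 and without old reproducing replicate 2. The number of members whose old groups did not overlap was 1 (4.59% of all genes), 0 with TMM factors (4.34% of all genes) and 1 to 6 with 1 old library left out, where the share of all genes was 5.66 to 13.9%. The 6 members (18.2%) without old reproducing replicate 4 stood beside that 13.9%, and the 5 (15.2%) without old non-reproducing replicate 3 beside 7.69%. The change of maker-000028F-snap-gene-5.63 between the old groups ranged from -0.027 without old non-reproducing replicate 4 to 0.62 without old non-reproducing replicate 2, and the cause was not tested. The share of members with the higher mean in old reproducing females was 69.7 to 81.8% with 1 library left out. Replicate numbers are shared by the groups, but same-numbered libraries deviated from their group means with r from -0.461 to 0.35. The best match carried the same number in 4 of 24 cases. Pairing by number was thus not seen in the members, though so few libraries cannot exclude it. With a replicate block 0 members were called, beside 1 of all genes, and the median change was -0.127.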

Other observations

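The order of the 4 young libraries was uneven over the 33 genes. In 6 of them (18.2%) young replicate 1 was highest, followed by replicates 4, 3 and 2, beside 5.16% of all genes at 0.5 CPM or more. In 5 more (15.2%) the order was 1, 4, 2 and 3, beside 2.03%. Young replicate 1 was the highest of its group in 15 members and replicate 3 in 1, while replicate 3 was the lowest in 12. Shares over all genes are not given for these counts, so they are not read as particular to the members. The rule used the lowest young value, so the orders of the young libraries in the members depend on the choice. Nothing is read from how the shares of these orders compare with those of all genes. The genes with the first order include the 4 most abundant members. The genes raised in every old library had a median log2 change of 0.16 between old non-reproducing and old reproducing females (561 genes tested). The median was -0.13 in the 33 lowered genes and -0.0029 in all genes. In raw CPM the old reproducing mean was the higher in 80.6% of all genes whose young mean lay above their old mean. The lower median of the 33 genes is thus not read as particular to them.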
